A study of Mus musculus with 15 samples.

Results

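The 10 genes described here, Bin1, Inpp5d, Picalm, Abi3, Plcg2, Sorl1, Ptk2b, Cd2ap, Rin3 and Abca7, are mouse counterparts of genes linked to the inherited risk of late-onset Alzheimer's disease (AD). They were found by symbol among the 38924 genes listed in every library, and all 10 were present once. The data are RNA-seq of CD11b+ myeloid cells sorted by FACS from brains of wild type male C57BL/6J mice killed at 12 months of age, parted by a high (CD45hi) or a low (CD45lo) surface level of the leukocyte protein CD45. The mice ate a chow diet (CD) throughout or a western diet (WD), rich in fat and sugar, from 2 months of age, which gave 4 CD CD45hi, 4 CD CD45lo, 3 WD CD45hi and 4 WD CD45lo libraries. The mice carried no disease allele and no transgene. The study's methods describe sorting CD11b+CD45+ brain cells into both subsets, so CD45hi and CD45lo libraries may share animals. Its data statement speaks of read counts for each animal, but the labels do not tie a library to an animal. The deposited files carry numbers that 7 CD45hi libraries share with a CD45lo library of the same diet, and whether such a number marks an animal is not stated. The main tests treat all libraries as separate, and the spread between them may be partly technical. The CD45 gate parts cells by a surface level and not by origin, and CD45hi libraries can hold microglia as well as other leukocytes.

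Most of these genes act where a cell takes up material and where it senses it. Bin1, Picalm, Cd2ap, Rin3 and Sorl1 belong to the route from the plasma membrane through clathrin-coated pits and early endosomes to sorting. Inpp5d, Plcg2 and Ptk2b act downstream of immune receptors such as TREM2, which signal through tyrosine kinases and membrane phosphoinositides, while Abi3 belongs to the machinery that branches actin filaments and Abca7 moves lipids across membranes. In the brain, several of them are transcribed mainly in microglia.

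The promoters of 7 of the 10 genes were in the reference table of RefSeq start sites (build GRCm38.p6, 250 bases before to 50 bases after the start), as 9 promoters; Bin1, Abi3 and Ptk2b had none there. They were searched on both strands for GAGGAA, the core bound by PU.1, a factor of the ETS family that shapes myeloid cells. The core was in 2 of the 9 promoters and in 28.3% of the 32851 promoters of that length in the table. Inpp5d, Picalm and Sorl1 are shown for comparison, with the core in capitals on either strand. Inpp5d was lower in CD45hi cells of WD-fed mice, Picalm was not called, and Sorl1 was higher in CD45hi cells on both diets. Ptk2b, also higher on both diets, had no promoter to show. The Inpp5d promoter, chr1:87620062-87620361 on the plus strand, held it 20 bases before the start and, on the other strand, from base 4 of the transcript. The Picalm promoter, chr7:90129963-90130262 on the plus strand, held it 57 and 31 bases before the start. The Sorl1 promoter shown, chr9:42124248-42124547 on the minus strand, held no match, and neither did the other promoters of the set.
Inpp5d: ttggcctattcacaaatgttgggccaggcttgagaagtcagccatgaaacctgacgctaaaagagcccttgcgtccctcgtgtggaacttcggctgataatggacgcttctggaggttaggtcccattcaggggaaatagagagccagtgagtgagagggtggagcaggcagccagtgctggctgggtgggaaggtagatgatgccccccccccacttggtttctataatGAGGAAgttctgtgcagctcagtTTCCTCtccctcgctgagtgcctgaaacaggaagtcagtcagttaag
Picalm: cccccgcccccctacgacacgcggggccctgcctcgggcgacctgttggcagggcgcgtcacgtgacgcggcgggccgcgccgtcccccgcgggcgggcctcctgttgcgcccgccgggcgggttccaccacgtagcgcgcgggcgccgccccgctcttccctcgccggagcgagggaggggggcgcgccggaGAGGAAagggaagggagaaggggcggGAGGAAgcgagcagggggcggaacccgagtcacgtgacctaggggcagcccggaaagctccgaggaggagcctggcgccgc
Sorl1: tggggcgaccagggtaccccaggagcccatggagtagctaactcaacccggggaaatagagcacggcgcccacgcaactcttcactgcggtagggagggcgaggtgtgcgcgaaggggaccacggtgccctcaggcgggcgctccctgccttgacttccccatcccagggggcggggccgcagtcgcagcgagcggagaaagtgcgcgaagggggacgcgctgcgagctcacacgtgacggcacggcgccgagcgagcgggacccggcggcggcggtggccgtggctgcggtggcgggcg
The GC content of the promoters shown was 53.7% for Inpp5d, 78.0% for Picalm and 72.3% for Sorl1, against a median of 52.7% over all promoters. A second Sorl1 promoter of the set, chr9:42077164-42077463, is not shown and had a GC content of 44.0%. The letters shown describe their windows only.

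Libraries held 11951412 to 17912272 expected counts (median 15100700). All 10 genes passed the filter of 1 cpm (counts scaled to a fixed library size) in 2 libraries, as did 14967 genes in all. Levels are given as cpm after TMM normalization, and a gene was called when its false discovery rate (FDR, Benjamini-Hochberg over the 14967 genes) was under 0.05. The genes of the sorted proteins were read first. Ptprc, which encodes CD45, was higher in CD45hi cells by 1.15 (CD, FDR = 0.00438) and 1.56 (WD, FDR = 8.05e-05) on the log2 scale in edgeR's glmTreat test against 1.5-fold, while Itgam, which encodes CD11b, was at a mean of 1780 to 2090 cpm in the 4 groups. The 10 microglial markers were all present and all lower in CD45hi cells, where they summed to 7770 to 9370 cpm against 15900 to 20500 cpm in CD45lo cells. Conversely, 8 of 8 markers of border macrophages, 6 of 8 of monocytes and 6 of 10 of neutrophils were called higher in CD45hi cells on both diets by edgeR's test for any change (5 of the 8 monocyte markers over 1.5-fold in WD-fed mice). In bulk libraries of this kind, a lower value from fewer cells of a type and one from less RNA per cell cannot be told apart.

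**Figure D1:**
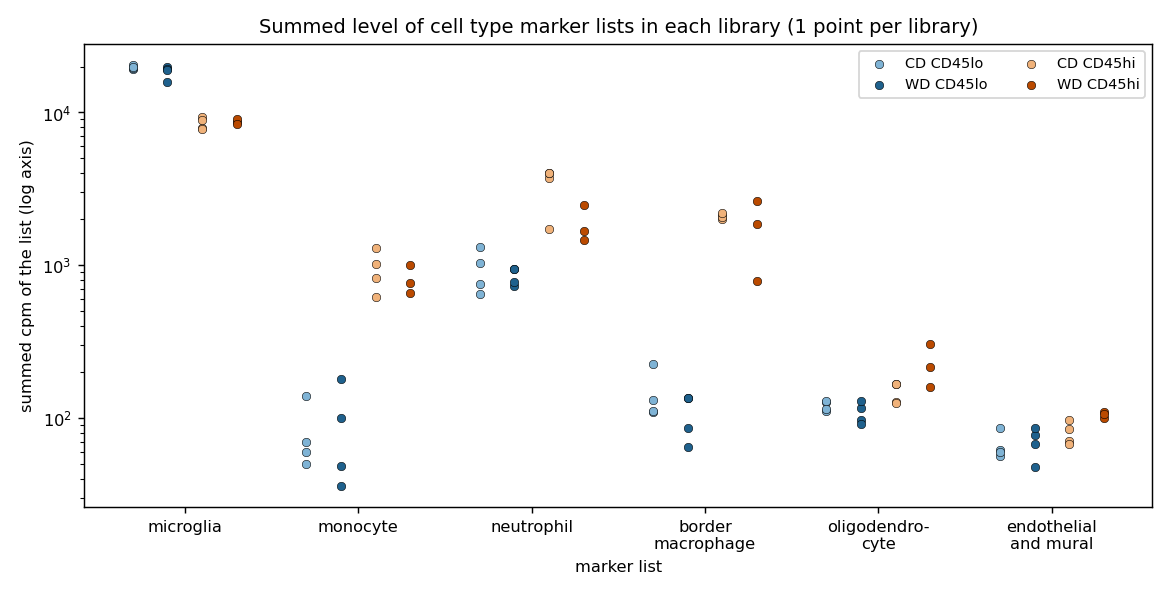
Summed cpm (log axis) of 6 marker lists, 1 point per library, coloured by group. Microglial markers sum to 7770 to 9370 cpm in CD45hi and to 15900 to 20500 cpm in CD45lo libraries, and border macrophage markers to 793 to 2640 cpm against 64.1 to 225 cpm; the WD CD45hi library at 793 cpm lies apart from the other CD45hi libraries.

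Per unit of transcript length, as the deposited TPM (transcripts scaled to a fixed total), Abi3 had the highest mean of the 10 in every group and Abca7 the lowest. In CD45lo cells of CD-fed mice the order of mean TPM was Abi3 (664), Picalm (394), Bin1 (292), Inpp5d (264), Rin3 (186), Cd2ap (143), Ptk2b (61.0), Plcg2 (53.9), Sorl1 (24.5) and Abca7 (5.58), and the libraries of each neighbouring pair in this order were apart. In CD45lo cells of WD-fed mice the order was the same, but the libraries overlapped between Picalm and Bin1, Bin1 and Inpp5d, Rin3 and Cd2ap, and Ptk2b and Plcg2. In CD45hi cells of CD-fed mice, each neighbouring pair overlapped except Plcg2 and Abca7, so the ranks there were not resolved. Over the 4 groups, 17 of the 36 neighbouring pairs overlapped. Set against all tested genes, Abi3 was between percentiles 96.9 and 99.2 of TPM and Picalm between 96.7 and 98.2, whereas Abca7 was between 31.7 and 40.9. The place of Sorl1 moved most with the gate, from percentile 66.2 in CD45lo to 87.5 in CD45hi cells on the CD, and on the WD from percentile 66.1 to 81.9. The CD CD45hi mean of Sorl1 includes replicate 4 at 116.94 TPM, while replicates 1, 2 and 3 were at 56.45, 44.2 and 31.24 TPM. In replicate 4 the mean transcript length of Sorl1 was also the shortest, at 5627 bases. RSEM's TPM divides by the length of the transcripts it assigns reads to. For Rin3 these were short (a mean length of 710 to 1400 bases over the libraries, although 2 of its listed coding transcripts have 3892 and 3755 bases), so its TPM rests on that assignment. Abi3 likewise had a mean length of 794 to 1154 bases, while its listed coding transcripts have 4006 and 733 bases. The first rank of Abi3 and its percentiles therefore rest on that assignment too.

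**Figure D2:**
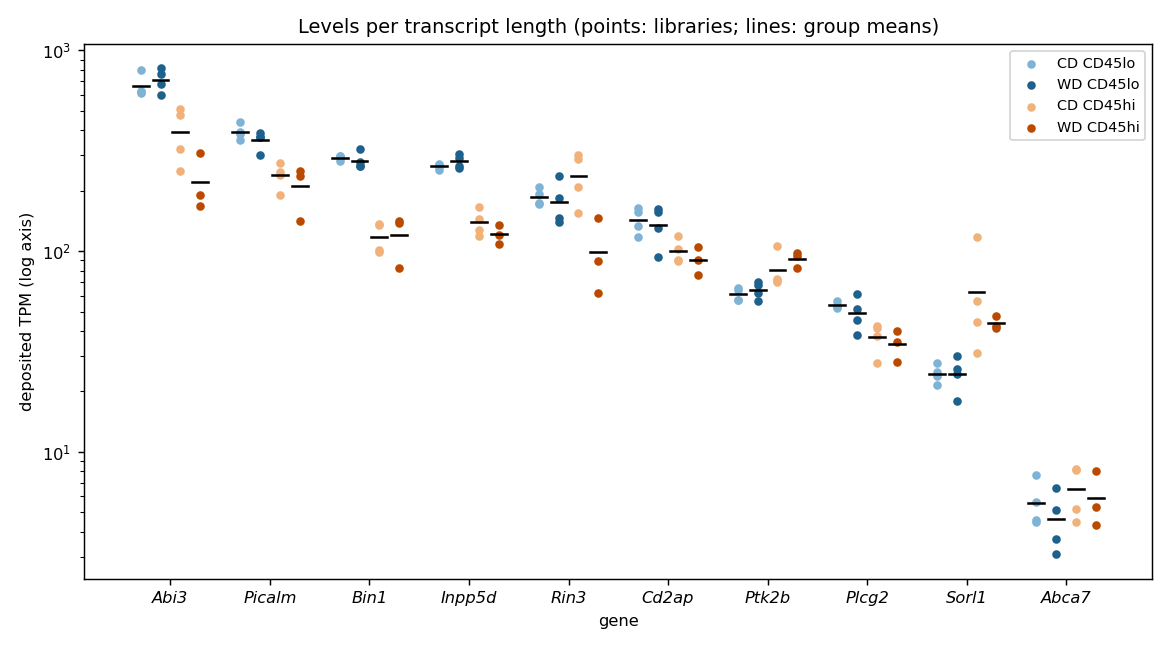
Deposited TPM (log axis) of the 10 genes in 15 libraries, coloured by group, with lines at group means; genes are ordered by their mean over the groups. Abi3 leads with group means of 221 to 714 TPM and Abca7 is lowest at 4.62 to 6.50 TPM. Sorl1 goes from means of 24.5 and 24.6 TPM in CD45lo to 62.2 and 43.7 TPM in CD45hi cells. The mean of 62.2 TPM includes CD CD45hi replicate 4 at 116.94 TPM.

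CD45hi and CD45lo cells were then compared within each diet, to find which of the 10 genes differed between these myeloid populations. Sorl1 and Ptk2b were higher and Bin1 was lower in CD45hi cells on both diets, and in WD-fed mice Inpp5d and Abi3 were also lower. In edgeR's quasi-likelihood test for any change, 3 of the 10 genes were called in CD-fed mice (2 higher, 1 lower), where 8.03% of all tested genes were called (5.95% higher, 2.08% lower). In WD-fed mice 5 were called (2 higher, 3 lower), against 9.12% of all genes (6.22% higher, 2.90% lower). The glmTreat test against 1.5-fold called Sorl1 alone on each diet, against 3.98% and 5.18% of all genes. The libraries of the compared cell types did not overlap for 5 of the 10 genes in CD-fed mice and for 5 in WD-fed mice, against 16.5% and 23.4% of all genes. The 10 log2 fold changes had a median of -0.05 in CD-fed and -0.12 in WD-fed mice, beside 0.04 and 0.00 over all tested genes. With the file numbers as a replicate block, Sorl1 and Bin1 were called in CD-fed mice and Sorl1 and Ptk2b in WD-fed mice for any change, and edgeR no longer called Ptk2b on the CD (FDR = 0.0544) or Bin1, Inpp5d and Abi3 on the WD (FDR = 0.118, 0.0781 and 0.0914).

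**Figure D3:**
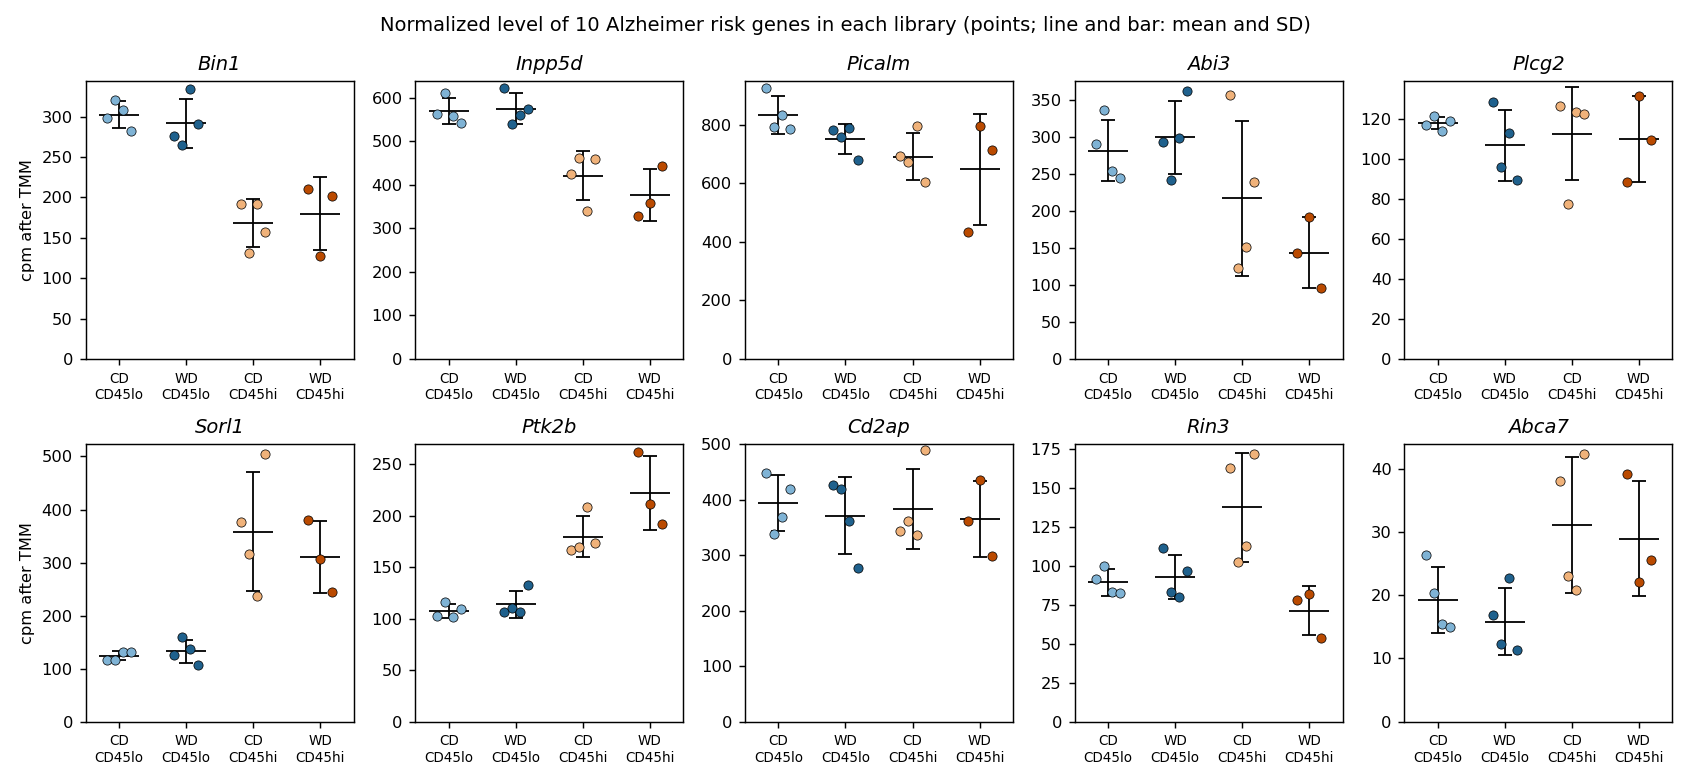
Level (cpm after TMM) of each gene in each library by group, with the mean and SD; each panel has its own axis from 0. Sorl1 and Ptk2b are higher in every CD45hi library than in any CD45lo library of the same diet, Bin1 and Inpp5d are lower in every one, and Rin3 in CD45hi cells lies at 103 to 172 cpm on the CD and at 53.6 to 82.1 cpm on the WD.

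Sorl1 (chr9:41964720-42124297, minus strand, mm10) encodes a sorting receptor of the VPS10 family, which returns cargo such as the amyloid precursor protein from endosomes. In CD-fed mice it was at 376.5, 316.4, 237.1 and 504.1 cpm in the 4 CD45hi libraries and at 117.0, 116.7, 132.3 and 132.1 cpm in the 4 CD45lo libraries. On the WD it was at 380.8, 306.7 and 245.2 cpm in CD45hi and at 126.7, 159.8, 137.5 and 106.3 cpm in CD45lo libraries. Every CD45hi library was above every CD45lo library, and the CD45hi libraries were the more spread. On the log2 scale the fold change was 1.53 ± 0.21 (SE; 2.88-fold) in CD-fed and 1.23 ± 0.22 (2.35-fold) in WD-fed mice, with glmTreat FDRs of 0.00216 and 0.0288. The call over 1.5-fold in WD-fed mice did not hold without WD CD45hi replicate 1 (1.06, edgeR FDR = 0.108) or without WD CD45lo replicate 1 (FDR = 0.0715), 3 (FDR = 0.0554) or 4 (FDR = 0.0836), nor by DESeq2 (FDR = 0.0648) or limma-voom (FDR = 0.136), whereas edgeR's test for any change called Sorl1 in all 15 fits without 1 library (FDR = 0.000516 to 0.00982 in WD-fed mice). The sample CD CD45hi replicate 4 had the highest count and also the shortest mean transcript length for Sorl1, 5627 bases, against 8044 to 10715 in the other CD45hi libraries. RSEM gave fractional Sorl1 counts in this library and in CD CD45hi replicate 1. The antisense gene Gm16214 overlaps Sorl1 and reached 2.89 cpm, and the lincRNA A830052D11Rik, which overlaps Bin1, reached 2.44 cpm. Sorl1 has 1 listed coding transcript, of 10715 bases, and 3 short noncoding ones.

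The genes whose log2 cpm followed Sorl1 most closely over the 15 libraries were Pirb, which encodes an inhibitory receptor of myeloid cells (Pearson r = 0.979), and Fgl2 (r = 0.972), with 0.878 and 0.786 after each group's mean was removed. The points of such correlations share libraries and fall into CD45hi and CD45lo clusters. Pirb had a mean of 301 and 268 cpm in CD45hi cells of CD- and WD-fed mice and of 45.5 and 55.9 cpm in CD45lo cells. Sort1, the VPS10 relative sortilin, went the other way, from 324 to 194 cpm in CD-fed (log2 fold change -0.74, edgeR FDR = 0.0151) and from 289 to 167 cpm in WD-fed mice (-0.79, FDR = 0.0153). Among 16 tested genes of the retromer and VPS10 list, Sorl1 was the 1 called higher on each diet, and Sort1 and, in WD-fed mice, Gga3 (-1.0, FDR = 0.0288) were called lower.

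Ptk2b (chr14:66153257-66281052, minus strand) encodes the tyrosine kinase Pyk2, a relative of focal adhesion kinase. Its CD45hi libraries were at 166.5, 169.5, 208.9 and 174.0 cpm in CD-fed and at 262.0, 211.3 and 192.4 cpm in WD-fed mice. The CD45lo libraries were at 103.0, 116.4, 101.9 and 109.9 cpm and at 106.5, 110.0, 106.5 and 132.8 cpm, respectively. The lowest CD45hi library thus stood above the highest CD45lo library on both diets. The log2 fold change was 0.74 ± 0.16 in CD-fed (1.67-fold, edgeR FDR = 0.00526) and 0.96 ± 0.17 in WD-fed mice (1.95-fold, FDR = 0.000949). It did not pass the test against 1.5-fold in WD-fed mice (glmTreat FDR = 0.0727), but passed without WD CD45hi replicate 3 (1.06, FDR = 0.0388) and with DESeq2's size factors (1.01, FDR = 0.0483). The focal adhesion kinase gene Ptk2 itself was low, with a mean of 7.34 cpm in CD45hi cells of CD-fed mice, and was not called (FDR = 0.958 and 0.788). The pattern of Ptk2b was closest to that of Gm16241 (r = 0.973) and of Fyb (r = 0.969), an adaptor of immune receptor signalling, with 0.722 and 0.775 after removing group means.

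Bin1 (chr18:32377230-32435737, plus strand) encodes a protein of the amphiphysin family that bends membranes during endocytosis. In CD-fed mice it was at 191.7, 130.7, 192.0 and 157.0 cpm in CD45hi libraries and at 298.0, 321.2, 308.1 and 281.9 cpm in CD45lo libraries. In WD-fed mice the values were 210.0, 127.8 and 201.5 cpm in CD45hi and 276.1, 265.4, 333.8 and 291.5 cpm in CD45lo libraries. The groups did not overlap on either diet. This gave a log2 fold change of -0.85 ± 0.17 in CD-fed (FDR = 0.00433) and -0.70 ± 0.19 in WD-fed mice (FDR = 0.0268; edgeR, any change). The former was called in all 15 fits without 1 library, while the latter was lost without WD CD45hi replicate 2 (-0.50, FDR = 0.0912), WD CD45lo replicate 3 (-0.63, FDR = 0.0826) or WD CD45lo replicate 4 (-0.70, FDR = 0.0555). Its relatives Bin2 (-0.48 and -0.53, FDR = 0.219 and 0.173) and Bin3 were not called. Fscn1, which bundles actin, and Lrrc3 followed Bin1 most closely (r = 0.972 and 0.960; 0.899 and 0.836 without group means).

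Inpp5d (chr1:87620312-87720507, plus strand) encodes SHIP1, a phosphatase that removes the phosphoinositide made by PI3-kinase and so damps receptor signalling. Its CD45hi libraries were at 425.5, 460.8, 339.8 and 458.3 cpm in CD-fed and at 328.4, 357.2 and 442.3 cpm in WD-fed mice. The CD45lo libraries were at 563.0, 610.8, 558.0 and 541.4 cpm and at 622.6, 540.4, 560.4 and 574.8 cpm. All CD45hi libraries were below all CD45lo libraries. In WD-fed mice the log2 fold change was -0.61 ± 0.14 (edgeR FDR = 0.0101). In CD-fed mice it was -0.43 ± 0.13 and missed the threshold (FDR = 0.0502), which 4 of 15 fits without 1 library passed: without CD CD45hi replicate 2 (FDR = 0.0467) or without WD CD45hi replicate 1, 2 or 3 (FDR = 0.0362, 0.0470 and 0.0311). Of 13 other alternatives 7 also called Inpp5d lower in CD-fed mice, among them DESeq2 (FDR = 0.0303), limma-voom (FDR = 0.0181) and the edgeR 4 form (FDR = 0.0382). The difference of these 2 values, tested as the interaction of diet and CD45 level, was -0.18 ± 0.19 (FDR = 0.811). Inppl1, which encodes the related SHIP2, was at 0.24 and 0.40 with FDRs of 0.784 and 0.561. The noncoding gene model Gm15503 (r = 0.969) and the ETS factor gene Fli1 (r = 0.945) had the patterns closest to that of Inpp5d (0.846 and 0.789 without group means).

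Abi3 (chr11:95830074-95842476, minus strand) encodes an Abl interactor, a subunit of the WAVE complex that starts actin branching. It was at 356.4, 123.1, 151.0 and 238.5 cpm in CD45hi and at 290.4, 336.7, 254.5 and 245.0 cpm in CD45lo libraries of CD-fed mice, and the groups overlapped. On the WD it was at 143.7, 191.3 and 95.31 cpm in CD45hi and at 293.5, 242.4, 299.2 and 362.2 cpm in CD45lo libraries, with no overlap. The log2 fold change was -0.37 ± 0.28 in CD-fed (edgeR FDR = 0.526) and -1.06 ± 0.31 in WD-fed mice (FDR = 0.0399), and the difference of the 2 was not called (interaction -0.69 ± 0.41, FDR = 0.616). Without 1 library, Abi3 in WD-fed mice passed in 7 of 15 fits (log2 fold change -1.32 to -0.84, FDR = 0.0149 to 0.122). It was lost without CD CD45lo replicate 1 (FDR = 0.0544), 3 (0.0518) or 4 (0.0521), WD CD45hi replicate 1 (0.0823) or 3 (0.122), and WD CD45lo replicate 1 (0.0755), 3 (0.0761) or 4 (0.102). Abi3 counts are uncertain. The gene overlaps Gngt2 and Zfp652 on the opposite strand, and the library kit does not keep the strand. RSEM gave fractional counts in all 15 libraries for Abi3 and likewise for Inpp5d, which overlaps no listed gene. Gngt2 had a mean of 163 and 108 cpm in CD45hi and CD45lo cells of WD-fed mice and of 125 and 91.3 cpm on the CD, and Zfp652 was between 350 and 602 cpm in all libraries. Abi1 (0.52 and 0.45, FDR = 0.271 and 0.346) and Abi2 (0.37 and -0.14, FDR = 0.536 and 0.839) were not called. Laptm5 (r = 0.914) and Trp53 (r = 0.895) were the genes most alike (0.877 and 0.873 without group means).

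Picalm (chr7:90130213-90213465, plus strand), a clathrin assembly protein gene, was at 603.8 to 796.5 cpm in CD45hi and 786.8 to 925.1 cpm in CD45lo libraries of CD-fed mice. On the WD its libraries were at 434.9, 797.6 and 712.4 cpm in CD45hi and 679.2 to 789.8 cpm in CD45lo libraries. The WD CD45hi library at 434.9 cpm was also the one with the lowest sum of border macrophage markers, 793 cpm against 1860 and 2640 cpm in the other WD CD45hi libraries; their part in the value was not tested. The log2 fold change was -0.27 (95% interval -0.57 to 0.04, edgeR FDR = 0.373) in CD-fed and -0.22 (-0.55 to 0.11, FDR = 0.48) in WD-fed mice. Ptgfrn and Chst14 were most like Picalm over the libraries (r = 0.925 and 0.918, and 0.930 and 0.952 without group means). By ranks (Spearman's rho) the likeness was lower, at 0.8 and 0.625.

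Cd2ap (chr17:42792951-42876665, minus strand), whose product is an adaptor between receptors, endocytosis and actin, had log2 fold changes of -0.04 (95% interval -0.38 to 0.30, edgeR FDR = 0.943) and -0.02 (-0.39 to 0.35, FDR = 0.966). Its libraries spanned 335.4 to 489.7 cpm and 337.9 to 448.2 cpm in CD45hi and CD45lo cells of CD-fed mice, and 299.0 to 434.4 cpm and 275.9 to 426.5 cpm in those of WD-fed mice. The groups thus overlapped over most of their range. Its relative Sh3kbp1 was likewise not called (0.16 and 0.11, FDR = 0.759 and 0.816). Necap1, an endocytic adaptor, and Cep95 were most alike (r = 0.796 and 0.784; 0.803 and 0.792 without group means), weaker likenesses than those of Sorl1 or Bin1.

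Plcg2 (chr8:117498291-117635142, plus strand) encodes the phospholipase C that generates calcium and lipid second messengers behind TREM2. It was at 126.5, 77.59, 123.2 and 122.5 cpm in CD45hi and 114.0 to 121.2 cpm in CD45lo libraries of CD-fed mice, and at 88.13, 131.4 and 109.5 cpm and 89.25 to 128.2 cpm in those of WD-fed mice. Its log2 fold change was -0.07 (95% interval -0.45 to 0.32, edgeR FDR = 0.91) and 0.04 (-0.37 to 0.45, FDR = 0.94). Plcg1, the other gamma isoform, was lower in CD45hi cells, at 40.8 against 79.0 cpm in CD-fed (-0.95 ± 0.28, FDR = 0.0475) and 28.2 against 86.6 cpm in WD-fed mice (-1.62 ± 0.32, FDR = 0.00304). Snrpb2 (r = 0.820) and Grpel1 (r = 0.796) were the most like Plcg2 (0.836 and 0.810 without group means).

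Rin3 (chr12:102283048-102390855, plus strand) encodes an exchange factor that loads the endosomal GTPase Rab5. In CD-fed mice it was at 163.0, 102.7, 112.8 and 172.3 cpm in CD45hi and at 92.01, 100.4, 83.16 and 82.56 cpm in CD45lo libraries, which did not overlap, yet the log2 fold change of 0.62 ± 0.21 was not called (edgeR FDR = 0.0911). It was called without CD CD45hi replicate 2 (0.74, FDR = 0.0456) and by DESeq2 (0.65, FDR = 0.0254). On the WD it was at 78.54, 82.12 and 53.60 cpm in CD45hi and at 111.7, 83.26, 80.32 and 96.90 cpm in CD45lo libraries, an overlap, with a log2 fold change of -0.38 ± 0.23 (FDR = 0.34). Of its relatives, Rin2 was at -0.46 and -0.38 (FDR = 0.193 and 0.289) and Rin1 was low, at means of 0.562 to 1.5 cpm over the 4 groups. Abca7 (chr10:79996494-80015572, plus strand), the lipid transporter, was at 38.01, 23.02, 20.85 and 42.36 cpm in CD45hi and at 26.30, 20.29, 15.43 and 14.98 cpm in CD45lo libraries of CD-fed mice. On the WD it was at 39.22, 22.07 and 25.53 cpm and at 16.92, 12.24, 22.78 and 11.36 cpm. The CD45hi means were higher, with log2 fold changes of 0.69 (95% interval -0.05 to 1.43, edgeR FDR = 0.337) and 0.87 (0.08 to 1.66, FDR = 0.195), but the libraries overlapped and the difference was not called. Its better known relative Abca1 was at -0.40 and -0.55 (FDR = 0.243 and 0.109). Rin3 was most like Rab32 (r = 0.896) and AI838599 (r = 0.867), and Abca7 like Ppp2r5a (r = 0.858) and Mbd2 (r = 0.834).

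**Figure D4:**
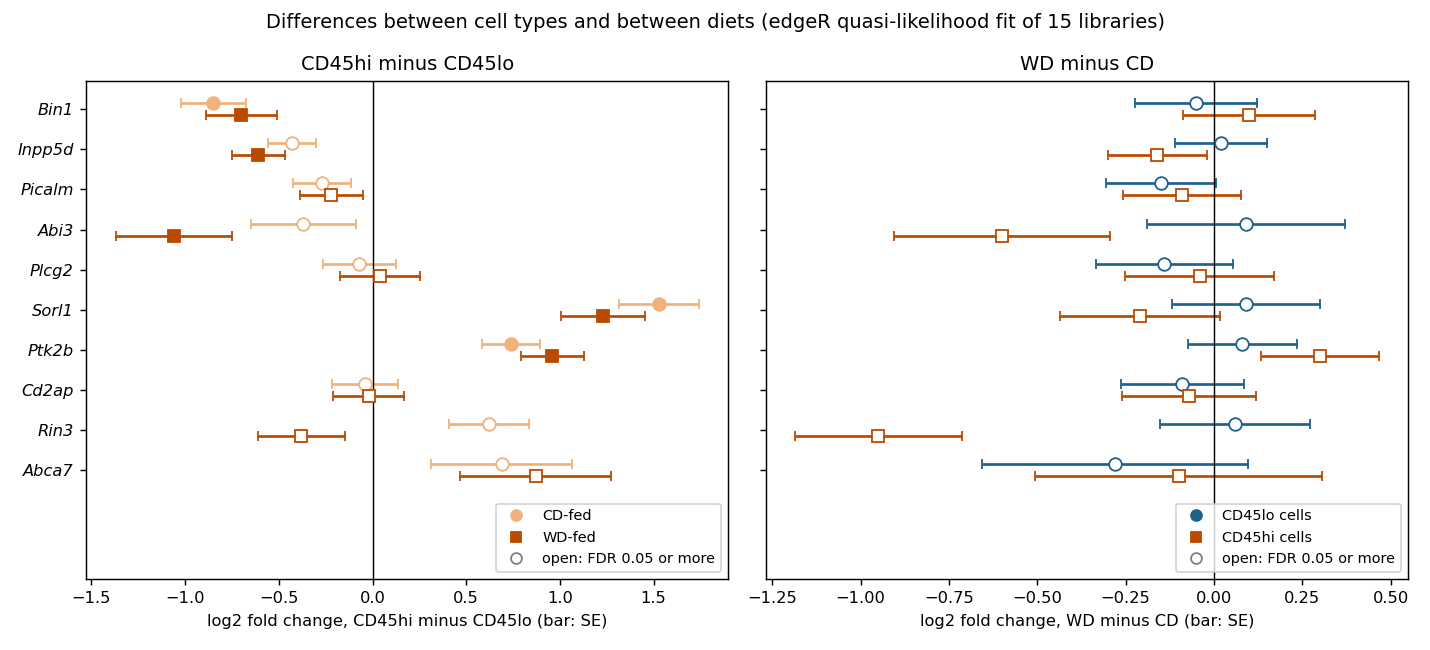
Log2 fold changes (points) with their SE (bars) between cell types on each diet (left) and between diets in each cell type (right), from edgeR's quasi-likelihood fit; filled points have an FDR under 0.05. Filled points stand only at the left, for Sorl1 and Ptk2b (higher) and Bin1 (lower) on both diets and for Inpp5d and Abi3 (lower) in WD-fed mice; at the right, Rin3 in CD45hi cells is farthest from 0, at -0.95.

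The WD was compared with the CD within each cell type to ask whether the diet moved these genes. None of the 10 was called in either cell type. In CD45hi cells, edgeR's quasi-likelihood test called 38 of all 14967 tested genes (0.254%), whereas DESeq2 called 1030 and limma-voom 27. Of the 10 genes, edgeR called 0, DESeq2 1 and limma-voom 0, and 1 had an unadjusted edgeR p under 0.05. That gene in each case was Rin3, whose 3 WD libraries (53.60 to 82.12 cpm) were all below the 4 CD libraries (102.7 to 172.3 cpm), the 1 of 10 genes without overlap there, against 5.77% of all genes. Its log2 fold change was -0.95 ± 0.24 (0.519-fold; edgeR FDR = 0.0796; DESeq2 FDR = 0.00393), and it was not called in any of the 15 edgeR fits without 1 library (FDR = 0.054 to 0.127). In CD45lo cells Rin3 differed by 0.06 ± 0.21. The interaction was -1.0 ± 0.32 (edgeR FDR = 0.356), so the difference in the diet's effect between cell types was not called. Over all genes the same interaction was called for 0.00668% by edgeR, for 188 genes by DESeq2 and for 0 by limma-voom. Of the 10 genes, edgeR, DESeq2 and limma-voom each called 0, and Rin3 alone had an unadjusted edgeR p under 0.05.

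The summed levels of other cell types' markers were read in the same CD45hi libraries. The 7 oligodendrocyte markers summed to 126 to 167 cpm in CD-fed and 159 to 305 cpm in WD-fed mice, with Mog at 0 in the former, and the 9 endothelial and mural markers to 67.5 to 96.5 and 99.2 to 109 cpm, with Kcnj8 at 0 in the latter. The 6 astrocyte markers summed to 84.2 to 135 and 116 to 284 cpm, with Aldh1l1 at 0 in the former, and the 10 neutrophil markers, none at 0, to 1740 to 4020 and 1450 to 2500 cpm. The ranges of the diets overlapped for the oligodendrocyte, astrocyte and neutrophil lists and not for the endothelial and mural list. The medians in CD- and WD-fed mice were 147 and 216 cpm (oligodendrocyte) and 77.6 and 106 cpm (endothelial and mural). They were 102 and 245 cpm for the astrocyte and 3850 and 1680 cpm for the neutrophil list. Of these 4 lists edgeR called 0 markers between diets in CD45hi cells, with 3, 1, 3 and 4 at an unadjusted p under 0.05 and 2, 0, 2 and 1 called by DESeq2. Monocyte markers summed to 616 to 1290 cpm in CD-fed and 654 to 1000 cpm in WD-fed mice. Border macrophage markers summed to 2000 to 2190 and 793 to 2640 cpm. For dendritic cells the sums were 180 to 432 and 253 to 293 cpm. For T and NK cells they were 10.6 to 52.3 and 28.0 to 143 cpm. All of these further ranges overlapped between diets, and edgeR and DESeq2 called 0 of their markers there. The part of any of these markers in the Rin3 values was not tested. Rab32 and AI838599, the genes most like Rin3, fell alongside it in the CD45hi means, from 60.2 to 30.1 cpm and from 15.1 to 7.16 cpm; they were picked for this likeness.

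The other genes lay closer to their CD values in CD45hi cells. Abi3 was at -0.60 (95% interval -1.20 to 0.00, edgeR FDR = 0.323) and Ptk2b at 0.30 (-0.02 to 0.63, FDR = 0.358). Sorl1, at -0.21 (-0.65 to 0.24, FDR = 0.681), Inpp5d, at -0.16 (-0.44 to 0.11, FDR = 0.583), and Bin1, at 0.10 (-0.27 to 0.46, FDR = 0.834), had intervals that included 0 and reached at most 0.65 from it. Abca7 had the widest interval, -0.90 to 0.69 around -0.10. In CD45lo cells edgeR called 0 of the 10 genes, none had an unadjusted p under 0.05, DESeq2 and limma-voom called 0, and the call covered 0.0% of all genes, with a DESeq2 count of 4 over all genes. The log2 fold changes of the 10 there ran from -0.28 (Abca7, 95% interval -1.02 to 0.46) to 0.09 (Abi3 and Sorl1), and all 10 overlapped between diets, whereas 2.42% of all genes did not.

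RSEM also gives the mean length of the transcripts to which it assigned a gene's reads, which would move if cells switched isoform. Picalm, Plcg2 and Cd2ap have 1 listed transcript and could not vary. For the other 7 genes, limma on the log2 length called 0 in each of the 4 comparisons and none had an unadjusted p under 0.05, against 0.0519% and 0.156% of 5781 genes called between cell types in CD- and WD-fed mice and 0.588% and 0.0% between diets in CD45hi and CD45lo cells. The largest difference was that of Rin3 between diets in CD45hi cells (0.24 ± 0.20 on the log2 scale), followed by Abi3 in the same comparison (0.17 ± 0.11) and Sorl1 between cell types in WD-fed mice (-0.17 ± 0.19). Bin1, with 2 listed coding transcripts of 2406 and 2091 bases, and Abca7, with 3 of 6590 to 6696 bases, differed by at most 0.02 in the 4 comparisons.

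The direction of small differences depended on the scale. TPM of all genes in a library sums to a constant, and on log2(TPM + 1) the median of all tested genes was -0.43 between CD45hi and CD45lo cells of CD-fed mice and -0.52 in WD-fed mice. On that scale, a choice added after seeing the data, limma called Bin1, Inpp5d, Picalm and Abi3 lower on both diets, Sorl1 higher in CD-fed mice (1.14, FDR = 0.0313) but not in WD-fed mice (0.83, FDR = 0.112), Rin3 lower in WD-fed mice (-0.88, FDR = 0.0451), and Ptk2b on neither diet (0.37 and 0.51, FDR = 0.194 and 0.084). Relative to the median of all genes, Sorl1 was at 1.57 and 1.35, Ptk2b at 0.80 and 1.03, Bin1 at -0.89 and -0.74, and Inpp5d at -0.50 and -0.68. These lay within 0.12 of the values on the cpm scale, and no called gene turned its direction; Plcg2 in WD-fed mice, not called, went from 0.04 to -0.49.

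**Figure D5:**
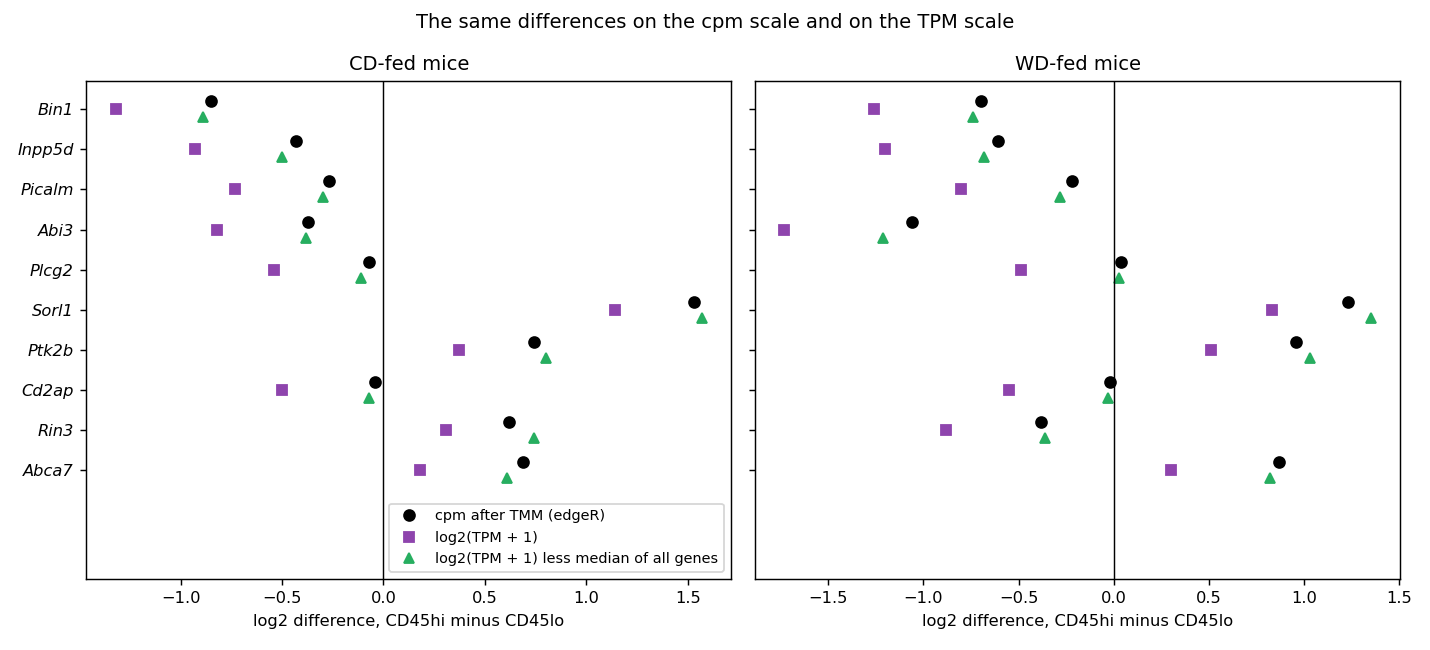
Difference between CD45hi and CD45lo cells (log2) of each gene in CD-fed (left) and WD-fed mice (right) from cpm after TMM, from log2(TPM + 1), and from the latter less the median of all tested genes. The TPM points lie to the left of the cpm points for all 10 genes, and taking away the median of -0.43 or -0.52 brings them back to within 0.15 of them.

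The neighbours of these genes in their pathways were read from lists of known members. Among 28 tested genes of clathrin-mediated endocytosis, a list without the 10 genes, 4 were called in CD-fed and 5 in WD-fed mice, all of them higher in CD45hi cells (edgeR, any change). As in the counts of the other lists here, the share to set beside them is the 8.03% and 9.12% of all tested genes called on the CD and the WD. The called genes included Hip1, a clathrin and actin adaptor (60.2 against 4.74 cpm in CD-fed mice, log2 fold change 3.66 ± 0.45), Itsn1, an endocytic scaffold (2.39 ± 0.45), and Eps15 (282 against 146 cpm). Of 16 tested genes of the early endosome and Rab5 list, which includes Rin3, edgeR called 0 between cell types on either diet, with 2 (CD) and 1 (WD) at an unadjusted p under 0.05 and 1 and 0 called by DESeq2. Of 42 genes of ITAM receptor and phosphoinositide signalling, 6 were higher and 2 lower in CD-fed and 7 and 3 in WD-fed mice. Among the higher ones were Fgr, a Src-family kinase (58.2 against 4.93 cpm, 3.56 ± 0.49), and Vav3, an exchange factor (22.6 against 1.34 cpm, 4.06 ± 0.86), both in CD-fed mice.

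In the actin list of 25 tested genes, by the same test and against the same 8.03% and 9.12% of all genes, 3 were called in CD-fed mice, all higher in CD45hi cells, and in WD-fed mice 5 were higher and 1, Abi3 itself, lower. Cyfip2, another WAVE subunit, was at 62.0 against 6.26 cpm in CD-fed and 137 against 6.02 cpm in WD-fed mice, and Actr3, of the Arp2/3 complex, at 628 against 365 cpm and 692 against 327 cpm. Abca9 (-0.43 ± 0.11 and -0.48 ± 0.12) was the 1 gene called among 10 tested ABCA transporters. Of 39 tested genes of a further list of AD risk genes, 4 were higher and 1 lower in CD45hi cells of CD-fed mice, and 5 and 4 in WD-fed mice. Apoe, which encodes a lipid carrier, rose from 115 to 1630 cpm (3.82 ± 0.27) and from 110 to 1710 cpm (3.96 ± 0.28), and Ace from 1.24 to 56.7 cpm and from 2.08 to 122 cpm. Trem2, the receptor upstream of Plcg2, was called lower in WD-fed mice (139 against 251 cpm, -0.85 ± 0.21, FDR = 0.0140). The interaction of diet and CD45 level was called for 0 of these 39 genes by edgeR and by DESeq2, with 6 at an unadjusted p under 0.05. Between diets edgeR called 0 genes of these lists in either cell type; in CD45hi cells 0 to 8 genes per list had an unadjusted p under 0.05 and DESeq2 called 0 to 4, and in CD45lo cells both counts were 0 in each list.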

How the data were processed

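RNA of sorted CD11b+CD45hi and CD11b+CD45lo brain cells was poly(A)-selected and sequenced by the authors as 75 bp paired-end reads; which of their 2 platforms ran which library is not given in the sources used here. Per the labels and methods, the authors trimmed reads and estimated, with RSEM 1.2.12 on mm10, the deposited expected counts (estimated counts, not normalized), TPM, FPKM and mean transcript lengths in bases. FPKM, as deposited by the authors, was used only to check the order of levels. Whether counting used the strand is not stated.

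Expected counts were rounded, filtered (1 cpm in at least 2 of 15 libraries), TMM-normalized and fitted in one model of 4 groups with edgeR 4.0.16 (legacy quasi-likelihood; R 4.3.3). CD45hi and CD45lo cells were compared by glmQLFTest (any change) and glmTreat (1.5-fold), diets and the interaction by glmQLFTest. Log2 lengths of 5781 genes (at least 2 transcripts and 10 cpm) were fitted with limma 3.58.1. An SE is the log2 fold change divided by the root of F, and 95% intervals are normal. Likeness is Pearson's r of log2 cpm over 8253 genes with a mean of at least 10 cpm. The depth of 11951412 to 17912272 counts puts 3 counts at 0.16 to 0.28 cpm (counting error only). The 21 replicate pairs differed by chi-square per degree of freedom of 22.0 to 143.3, so no 2 were one library deposited again; this does not tell separate animals from repeat preparations.

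Genes named beside the 10 are their paralogues, the 2 genes most like each, and, of each list, up to 4 with the largest change among those called with 10 cpm in the higher group; Trem2 was named after its values were seen. The 10 genes and the lists were chosen with earlier results of these data known. Ms4a4a, Ankh, Rbsn, Fcmr and Chil3 had no listed row. Alternatives were DESeq2 1.42.0, limma-voom, other filters, scalings, replicate blocks and leaving out each library. In a simulation with 100 genes changed 2-fold, 24 were recovered between diets in CD45hi cells and 9 for the interaction. Between cell types in WD-fed mice, 29 were recovered for any change and 5 over 1.5-fold. With 4-fold changes these numbers were 80, 55, 81 and 67, and unchanged genes called were 2, 4, 6 and 3. A gene left uncalled here may therefore still differ by 2-fold. Coordinates are from GENCODE M21 on the same build.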

Additional observations from a re-analysis of the deposited data

Results flagged for a closer look

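Of the 30 sets of 4 libraries (10 genes in 3 groups) in which a single distant library was looked for, 2 held one, where chance alone gives about 1 in 20. Plcg2 was at 77.59 cpm in CD CD45hi replicate 2, below 122.5 to 126.5 cpm in the other 3 libraries of that group (a gap of 0.919 of the range). Without that library the difference between CD45hi and CD45lo cells stayed uncalled. Ptk2b was at 132.8 cpm in WD CD45lo replicate 4, above 106.5 to 110.0 cpm in the other 3 (0.867 of the range), and the gene was called higher in CD45hi cells with and without it.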

How the results depend on the processing

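Each alternative changed 1 choice, except that DESeq2 changed the size factors, dispersion and test together, log2 TPM the unit and the tool, and 1 fit left out 2 libraries. The number of the 10 genes called between CD45hi and CD45lo cells over 1.5-fold was 1 on each diet. On log2 TPM the count in CD-fed mice was also 1, but limma's test against 1.5-fold called Bin1 lower there. That test did not call Sorl1 in CD-fed mice (FDR = 0.446). A limit on the estimate set after the test gave 3 (CD) and 5 (WD). For WD-fed mice DESeq2, limma-voom, the block by file name numbers and a fit without the CD CD45hi replicate 4 and WD CD45hi replicate 1 each gave 0, DESeq2's size factors gave 2 and log2 TPM 3; leaving out 1 library gave 0 to 2. For any change, DESeq2 and log2 TPM each gave 5 in CD-fed mice instead of 3, and leaving out 1 library gave 3 to 5 on both diets, against main counts of 3 and 5. Between diets in CD45hi cells DESeq2 called 1 (Rin3) instead of 0. By Spearman's rho, 1 of the 20 most alike genes stayed in place, so those names depend on the measure. No called gene reversed under any alternative, and the cause of the changed calls was not tested.

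Whether the numbers in the sample titles or the file names mark animals is not stated, and neither set was shown to pair the libraries: correlations of same-numbered libraries' deviations were -0.022 to 0.069 and -0.00047 to 0.069 over 7 pairs each. With the replicate block by title numbers the counts of called genes were 3 (CD) and 4 (WD, without Abi3) for any change; with the block by file name numbers they were 2 in each diet, with Ptk2b (CD, FDR = 0.0544), Bin1, Inpp5d and Abi3 (WD, FDR = 0.118, 0.0781 and 0.0914) no longer called. That block could not be fitted for the diets, and fits of the compared groups alone give no interaction.

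Over all genes, higher and lower calls for any change were 891 and 311 in CD-fed and 931 and 434 in WD-fed mice, against 567 and 1314, and 590 and 2016, on log2 TPM, 900 and 670, and 902 and 655, by limma-voom, and 1289 and 578, and 1430 and 928, by DESeq2. Between diets in CD45hi cells 38 genes were called by edgeR, 1030 by DESeq2, 252 by the edgeR 4 form, 0 with the compared groups alone, 2 with the title block, and 1 to 286 without 1 library. The 10 genes had SEs of 0.141 to 0.406 between diets in CD45hi cells.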
